A study of Mus musculus with 9 samples.

Results

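The genes described here handle iron in brain myeloid cells: the ferritin chains Fth1 and Ftl1, the ferritin receptor Ncoa4, the uptake and transport genes Tfrc, Steap3, Slc11a1, Slc11a2 and Slc40a1, and the haem oxygenases Hmox1 and Hmox2. They were chosen by name, as 10 of the 36528 genes listed for each library, and all 10 had a row. The study sequenced RNA from Cd11b+ cells sorted from mouse brain at 11 to 12 months of age, Cd11b being an integrin chain that microglia and further myeloid cells carry. Tau-P301L libraries numbered 5 (1 and 2 from females, 3 to 5 from males) and came from mice with a transgene for tau carrying a mutation that causes an inherited dementia. Wild-type libraries numbered 4 (1 and 2 from females, 3 and 4 from males) and came from their littermates without it. No source used here names the promoter that drives the transgene or the strain background. The labels do not tie libraries to separate mice, and the p-values below cover the spread between libraries, which may be technical.

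Cells take up iron bound to transferrin through the transferrin receptor, reduce it in the endosome and pass it to the cytosol, where ferritin shells of heavy and light chains store it until Ncoa4 hands ferritin to the lysosome. Ferroportin, the product of Slc40a1, is the known exporter, and haem oxygenases free iron from haem. Iron regulatory proteins bind a hairpin, the iron-responsive element, in several of these mRNAs: at the start of an mRNA the bound hairpin holds back translation, and in the tail of the transferrin receptor mRNA it protects the message from decay. A read count follows the amount of mRNA and does not measure the translation that such a hairpin controls. Brain microglia and macrophages are known to hold much ferritin, and iron-laden myeloid cells are described in several neurodegenerative diseases.

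The hairpins are shown because they mark those of the 10 mRNAs in which the form searched here was found. They were read from GENCODE M21 transcripts (GRCm38), on the transcript strand, as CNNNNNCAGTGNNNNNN whose 5 bases before and after the 6-base loop can pair, with G and T allowed as a pair. Capitals mark the loop, and 29 bases are given for each.
Fth1, before the coding sequence, chr19:9982732-9982760, plus strand: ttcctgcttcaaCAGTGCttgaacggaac
Ftl1, before the coding sequence, chr7:45459779-45459807, minus strand: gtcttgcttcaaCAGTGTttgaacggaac
Slc40a1, before the coding sequence, chr1:45925465-45925493, minus strand: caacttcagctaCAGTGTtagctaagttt
Tfrc, after the coding sequence, chr16:32631219-32631247, plus strand: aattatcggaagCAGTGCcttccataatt
Tfrc, after the coding sequence, chr16:32631598-32631626, plus strand: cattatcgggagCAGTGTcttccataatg
Tfrc, after the coding sequence, chr16:32631663-32631691, plus strand: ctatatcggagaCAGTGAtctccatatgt
Tfrc, after the coding sequence, chr16:32631710-32631738, plus strand: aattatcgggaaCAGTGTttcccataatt
The Fth1 and Ftl1 hairpins had the same base at 26 of 29 positions. Of the 10 genes, 3 held the element before the coding sequence, where 0.136% of 20544 genes with such a region hold it. In the region after the coding sequence 1 of the 10 held it, Tfrc with 4 copies, against 0.607% of 20937 genes. Regions differ in length, only this form of the hairpin was searched, and a gene without a match may carry another form.

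Reads counted in genes numbered 1494727 to 3793606 per library. Levels are given in CPM, the unit of reads scaled to library size, after TMM scaling. In this unit 3 reads stand for 0.831 CPM in wild-type library 4, the lowest, to 2.10 CPM in Tau-P301L library 5, the highest. Itgam, the gene for Cd11b, averaged 2663 ± 335.1 CPM in Tau-P301L libraries, against 2863 ± 236.8 CPM in wild-type ones (SD, n = 5 and 4). The summed level of 7 microglial markers was 7982 to 14440 CPM in Tau-P301L libraries, against 9901 to 13890 CPM in wild-type ones. For border macrophages, which express several of the iron genes, 8 markers summed to 148.7 to 298.9 CPM in Tau-P301L libraries, against 229.5 to 307.1 CPM in wild-type ones. Much of this sum was Stab1, at 65.0 to 236.4 CPM in Tau-P301L and 187.5 to 269 CPM in wild-type libraries. Single markers differed from it. Log2 fold changes of Tau-P301L over wild-type were -0.66 for Stab1, -0.18 for Mrc1, -0.05 for Cd163 and -0.23 for F13a1. They were 0.95 for Lyve1 and 0.98 for Ms4a7, and Pf4 and Cbr2 were not tested. Of 5 red blood cell markers, Hba-a1, Hba-a2 and Hbb-bs were listed at 0 in all 9 libraries. Globin genes have near-identical copies, whose reads may not align uniquely, so a 0 here does not show that red blood cells were absent. The sum was 0.698 to 8.98 CPM in Tau-P301L libraries, against 0.682 to 4.15 CPM in wild-type ones. All of it was Alas2 except in wild-type library 2, the lowest, where Alas2 and Hbb-bt had 1 read each. Neutrophil markers summed to 234.3 CPM in Tau-P301L library 4 and to at most 67.7 CPM elsewhere, and the 6 oligodendrocyte markers to 1376 CPM in Tau-P301L library 5 and to at most 646.1 CPM elsewhere. In Tau-P301L libraries 3 and 5 the number of genes reaching 10 reads was smallest (9928 and 9063), and the genotype values without these libraries stand in the closing section. In bulk RNA fewer cells of a type and less RNA per cell cannot be told apart.

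How much of each mRNA can be told from other genes bears on what these counts hold, since the deposited counts are of uniquely aligned reads. Each mRNA was split into words of 50 bases, and a word was called shared when it occurred exactly in a transcript of another gene. A word shared only with a gene that overlaps the same place can still align uniquely. How reads there were assigned to genes is not stated. Near-identical copies, and copies outside annotated transcripts, were not searched. Of the Ftl1 mRNA, 9.36% of the words were found in no other gene. Copies at 15 other genes, among them the pseudogenes Ftl1-ps1, Ftl2-ps and Ftl1-ps2, held 74.8% of its words, and genes that overlap Ftl1 on the genome held 39.9%, some words being in both. Ncoa4 shared 43.1% of its words with Gm6768, a processed pseudogene on another chromosome. Hmox2 shared 47.7% with Cdip1, a gene that overlaps it on the opposite strand, and counting is not stated to use strand. Fth1 shared 6.59% with Gm6977, also a processed pseudogene, and Slc11a1 1.15% with many genes. The other 5 mRNAs shared none. With 74.8% of its words held by copies elsewhere, the Ftl1 count may cover only a small part of its mRNA. The Hmox2, Ncoa4 and Ftl1 counts are uncertain. The read length is not given in the sources used here, and longer reads would share less.

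**Figure D1:**
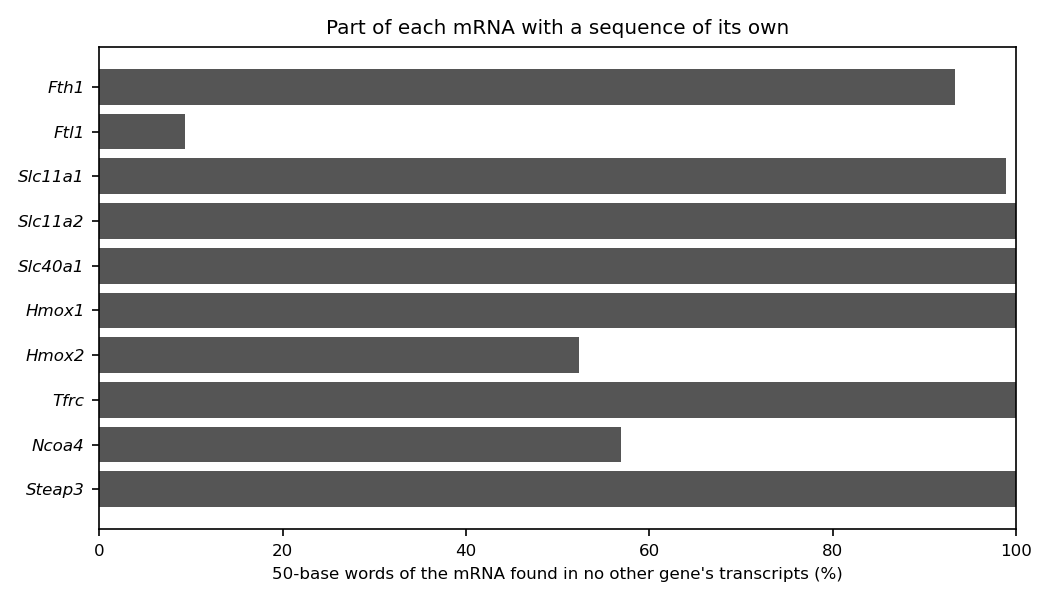
Bars give, for each of the 10 iron genes (vertical axis), the percentage of 50-base words of its mRNA that occur in no transcript of another gene (horizontal axis, 0 to 100%). Ftl1 stands lowest at 9.36%, followed by Hmox2 at 52.3% and Ncoa4 at 56.9%, while the other 7 lie between 93.4% and 100%.

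Between genes, levels can be compared per length only, for which the authors' deposited RPKM values were used, averaged over all 9 libraries. Fth1, the heavy chain that oxidises iron as it enters the shell, was first with 12.0 ± 2.47 RPKM (SD, n = 9), and ranked 618 of the 24752 genes with any read. Slc11a1, a metal transporter of the phagosome membrane, followed with 6.28 ± 2.25 RPKM, Slc40a1 with 4.78 ± 1.58 RPKM and Hmox2 with 3.48 ± 0.781 RPKM. Slc11a2, the endosomal iron transporter, stood at 0.879 ± 0.272 RPKM, Hmox1 at 0.832 ± 0.403 RPKM, and Ftl1, the light chain, at 0.810 ± 0.241 RPKM, the last beside the 9.36% of unshared sequence given above. Tfrc, the transferrin receptor, had 0.353 ± 0.251 RPKM and Ncoa4 0.276 ± 0.0838 RPKM. Steap3, the reductase of the transferrin endosome, came last at 0.0237 ± 0.0290 RPKM.

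Fth1 lay above Slc11a1 in 9 of 9 libraries, and Hmox2 above Slc11a2, Ftl1 above Tfrc and Ncoa4 above Steap3 likewise. The order between other neighbours was not that stable: Slc11a1 lay above Slc40a1 in 6 of 9 libraries, Slc40a1 above Hmox2 in 8, Slc11a2 above Hmox1 in 6, Hmox1 above Ftl1 in 5 and Tfrc above Ncoa4 in 6. RPKM divides by the whole length while the counts are of uniquely aligned reads. The places of Ftl1 and Ncoa4 in this order are therefore of unique reads and may not be those of the transcripts. That of Hmox2, also against Slc11a2, may rest in part on reads of the overlapping Cdip1, with which it shared 47.7% of its words.

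**Figure D2:**
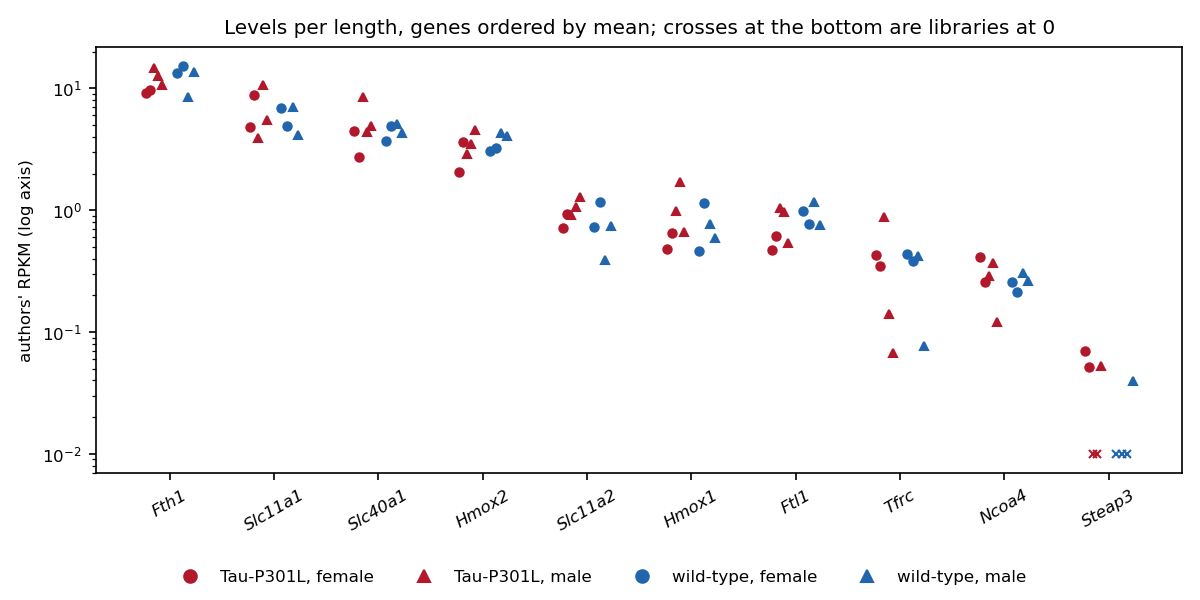
Each point is 1 library, with the authors' RPKM on a logarithmic vertical axis and the 10 genes in order of their mean on the horizontal axis; Tau-P301L (red) stands left of wild-type (blue), circles are females and triangles males, and crosses at the bottom are libraries at 0. Fth1 leads at 12.0 RPKM, Slc11a2, Hmox1 and Ftl1 overlap near 0.8 RPKM, and Tfrc is split, with 3 male libraries far below the rest.

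The design sets cells from Tau-P301L mice against cells from wild-type littermates of the same age. No difference in any of the 10 genes was detected at this depth. Of the 9 that passed the low-count filter, 0 had an adjusted p under 0.05 in edgeR's quasi-likelihood test, where 0.00816% of the 12250 genes tested did. At an unadjusted p under 0.05 it was also 0 of 9, against 6.35% of all genes (3.57% higher and 2.78% lower in Tau-P301L), and the groups did not fully separate for any of the 10, against 2.48% of all genes. DESeq2 and limma-voom likewise called 0 of the 9. Estimates were higher in Tau-P301L for 6 and lower for 3, and under at least 1 alternative the sign turned for 7 of them (not for Ftl1 or Hmox2). The median log2 fold change was 0.16, beside -0.0007 over all genes tested, of which 50.1% were lower. These shares are given as a description, since the 10 genes were chosen by name.

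In ferritin itself the groups overlapped; here and below, gene numbers are those of the files, coordinates are of GRCm38, and all 10 genes are protein-coding. Fth1 (gene number 14319, chr19:9980600-9985111) had 58.1, 61.8, 88.8, 78.7 and 64.9 CPM in Tau-P301L libraries 1 to 5, against 84.6, 94.5, 52.4 and 86.7 CPM in wild-type libraries 1 to 4. Both the lowest and the highest value were in wild-type libraries, 3 and 2. Its mean was 70.5 ± 12.9 CPM in Tau-P301L libraries, against 79.5 ± 18.6 CPM in wild-type ones (SD, n = 5 and 4), with a log2 fold change of -0.18 (SE 0.28, 95% interval -0.76 to 0.40, edgeR adjusted p = 0.929). On a linear scale this interval runs from 0.590 to 1.32 times the wild-type level.

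Ftl1 (gene number 14325, chr7:45457944-45459886) had 6, 7, 9, 9 and 3 reads in Tau-P301L libraries 1 to 5, against 13, 9, 12 and 11 in wild-type libraries 1 to 4. Those are 1.91, 2.50, 4.04, 3.85 and 2.10 CPM in Tau-P301L, against 3.98, 3.07, 4.59 and 3.05 CPM in wild-type libraries. The wild-type libraries lay within the upper part of the Tau-P301L range or above it. Its estimate was a log2 fold change of -0.40 (SE 0.72, 95% interval -1.89 to 1.10, edgeR adjusted p = 0.939), and the interval spans 0.269 to 2.14 times the wild-type level.

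The ratio of heavy to light chain reads within a library does not depend on scaling. Such ratios are not corrected for length, so they are compared between libraries only. It ran from 19.4 to 28.2 in Tau-P301L and from 11.0 to 29.2 in wild-type libraries, so the Tau-P301L range lay inside the wild-type range. On the log2 scale the mean was 4.55 ± 0.23 in Tau-P301L libraries, against 4.36 ± 0.64 in wild-type ones (SD, n = 5 and 4), a difference of 0.19. A two-sided exact permutation test over the 9 libraries gave p = 0.682 (adjusted over 3 ratios, 0.952). Since most Ftl1 sequence is shared with its copies, this is a ratio of uniquely aligned reads and not of the chains.

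Ncoa4 (gene number 27057, chr14:32159879-32179855), the receptor that delivers ferritin for breakdown, had 23, 13, 11, 15 and 3 reads in Tau-P301L libraries 1 to 5, against 15, 11, 14 and 17 in wild-type libraries 1 to 4. In CPM these were 7.31, 4.64, 4.93, 6.41 and 2.10 in Tau-P301L, against 4.60, 3.75, 5.36 and 4.71 in wild-type libraries. The wild-type values all lay inside the range of the Tau-P301L values. Tau-P301L over wild-type gave a log2 fold change of 0.16 (SE 0.62, 95% interval -1.13 to 1.45, edgeR adjusted p = 0.972).

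Among the uptake genes, Tfrc (gene number 22042, chr16:32608896-32632794), which brings in transferrin-bound iron, had 29, 21, 41, 7 and 2 reads in Tau-P301L libraries 1 to 5, against 31, 24, 23 and 6 in wild-type libraries 1 to 4. In CPM these were 9.21, 7.50, 18.4, 2.99 and 1.40 in Tau-P301L, against 9.50, 8.18, 8.80 and 1.66 in wild-type libraries. The low libraries, Tau-P301L 4 and 5 and wild-type 4, were all from males and came from both groups, while Tau-P301L library 3, also male, held the highest value. The log2 fold change of Tau-P301L over wild-type was 0.27 (SE 0.69, 95% interval -1.16 to 1.70, edgeR adjusted p = 0.953).

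Steap3 (gene number 68428, chr1:120226414-120271081), which reduces iron in the same endosome, was at the limit of detection. It had 3, 2, 0, 0 and 1 reads in Tau-P301L libraries and 0, 0, 0 and 2 reads in wild-type libraries, at or under 3 reads everywhere. It did not pass the filter, and no fold is given.

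Metal transporters of endosome and phagosome were better covered. Slc11a1 (gene number 18173, chr1:74375014-74386057), the macrophage transporter that moves metal ions across the phagosome membrane, had 51.5, 94.3, 40.4, 111 and 56.6 CPM in Tau-P301L libraries 1 to 5, against 73.3, 51.5, 72.7 and 44.9 CPM in wild-type libraries 1 to 4. The Tau-P301L libraries reached both lower and higher than the wild-type ones. Its log2 fold change was 0.23 (SE 0.32, 95% interval -0.44 to 0.91, edgeR adjusted p = 0.919).

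Slc11a2 (gene number 18174, chr15:100387898-100424209), which carries iron out of the endosome, had 20.7, 27.5, 25.6, 30.4 and 36.3 CPM in Tau-P301L, against 21.2, 33.4, 11.1 and 21.6 CPM in wild-type libraries. Its mean was 28.1 ± 5.81 CPM in Tau-P301L libraries, against 21.8 ± 9.13 CPM in wild-type ones (SD, n = 5 and 4). This was the highest estimate of the 9 genes tested, a log2 fold change of 0.39 (SE 0.39, 95% interval -0.42 to 1.21, edgeR adjusted p = 0.869), and wild-type library 2 lay above 4 of the 5 Tau-P301L libraries. Tau-P301L library 5, the highest, also held the most oligodendrocyte markers, whose part in its level was not tested.

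The exporter Slc40a1 (gene number 53945, chr1:45908070-45926532) had 64.5, 39.6, 119, 63.3 and 69.8 CPM in Tau-P301L libraries 1 to 5, against 54.3, 70.6, 71.9 and 62.9 CPM in wild-type libraries 1 to 4. The Tau-P301L values spread more widely, with library 3 highest and library 2 lowest of all 9. Its mean was 71.3 ± 29.2 CPM in Tau-P301L libraries, against 64.9 ± 8.15 CPM in wild-type ones (SD, n = 5 and 4), and the log2 fold change was 0.06 (SE 0.29, 95% interval -0.56 to 0.67, edgeR adjusted p = 0.980).

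Set against uptake, the ratio of Slc40a1 to Tfrc reads ran from 5.19 to 40.2 in Tau-P301L and from 5.64 to 35 in wild-type libraries. Its log2 mean was 3.50 ± 1.27 in Tau-P301L and 3.43 ± 1.16 in wild-type libraries (SD, n = 5 and 4; the same exact permutation test gave p = 0.952, also after adjustment). The wide range in both groups follows the Tfrc reads, which were lowest in the libraries of the highest ratio.

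Hmox1 (gene number 15368, chr8:75093618-75100593), the haem oxygenase that cells switch on under haem and oxidative stress, was low throughout. It had 10, 12, 14, 26 and 6 reads in Tau-P301L libraries 1 to 5, against 10, 22, 13 and 14 in wild-type libraries 1 to 4. In CPM these were 3.18, 4.29, 6.28, 11.1 and 4.19 in Tau-P301L, against 3.07, 7.50, 4.97 and 3.88 in wild-type libraries. Tau-P301L library 4, which also had the highest neutrophil markers (234.3 CPM summed), held the highest value, and the part of those cells in it was not tested. Its log2 fold change was 0.16 (SE 0.65, 95% interval -1.19 to 1.51, edgeR adjusted p = 0.973).

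Hmox2 (gene number 15369, chr16:4726361-4766742), the constitutive enzyme, had 15.3, 27.1, 20.6, 25.7 and 32.8 CPM in Tau-P301L libraries 1 to 5, against 22.7, 23.9, 31.4 and 30.5 CPM in wild-type libraries 1 to 4. Wild-type values lay inside the Tau-P301L range, whose highest value was again library 5. Its log2 fold change was -0.19 (SE 0.35, 95% interval -0.91 to 0.53, edgeR adjusted p = 0.939), in counts that may include reads of the overlapping Cdip1.

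Reads of Hmox1 were fewer than those of Hmox2 in every library, with a ratio of 0.137 to 0.438 in Tau-P301L and 0.131 to 0.319 in wild-type libraries. The log2 mean was -2.11 ± 0.68 in Tau-P301L libraries, against -2.50 ± 0.59 in wild-type ones (SD, n = 5 and 4), a difference of 0.39 (same exact permutation test, p = 0.357, adjusted 0.952). The smallest p this test can give with 5 and 4 libraries is 0.00794.

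**Figure D3:**
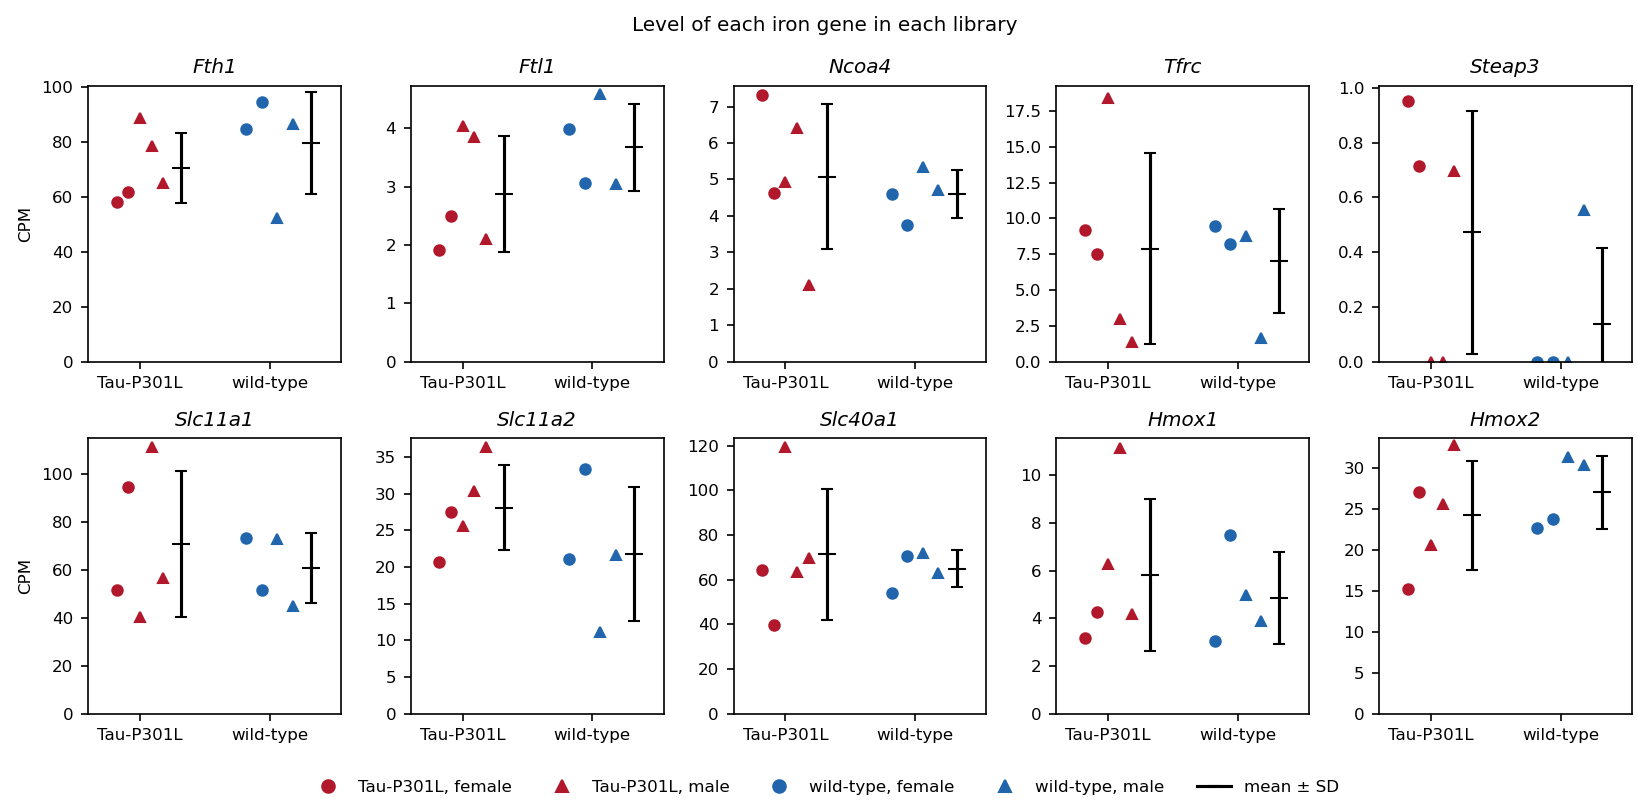
Each panel plots 1 gene, with its level in CPM after TMM scaling on a vertical axis from 0; points are the 5 Tau-P301L libraries (red, left) and the 4 wild-type libraries (blue, right), circles females and triangles males, with bars for the mean and SD, cut at 0. In every panel the groups overlap, and Tfrc shows the 3 male libraries at 1.40 to 2.99 CPM from both groups.

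Sex gave no call among the 9 genes tested either. In the same fit, log2 differences of males over females ran from -0.41 for Tfrc to 0.42 for Slc40a1, with 0 of 9 past an adjusted p of 0.05 in edgeR (0.049% of all genes) and 0 of 9 at an unadjusted p under 0.05 (2.43% of all genes). Whether the genotype effect differed between the sexes was tested with an interaction term. Interaction estimates ran from -0.65 for Ncoa4 to 1.21 for Hmox1, and 0 of 9 passed unadjusted (3.8% of all genes) or adjusted (0% of all genes). The interaction of Hmox1 had an SE of 1.29 and an edgeR adjusted p of 0.999. DESeq2 and limma-voom also called 0 of the 9 for sex and for the interaction.

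Over the 36 pairs of the 9 tested genes, Pearson correlations of log2 CPM across the 9 libraries ran from -0.643 to 0.488, and the smallest adjusted permutation p was 0.901 for r and 0.770 for Spearman's rho (exact tests over all pairings). By Pearson's r the strongest was between Slc11a1 and Slc40a1 (r = -0.643, exact permutation p = 0.0553; rho = -0.517, p = 0.162), with r = -0.605 without the 2 libraries farthest from the median of Slc11a1. By Spearman's rho it was between Hmox2 and Tfrc (rho = -0.767, exact permutation p = 0.0214, adjusted p = 0.770; r = -0.620, p = 0.0733), with r = -0.625 without the 2 libraries farthest from the median of Hmox2. For some other pairs such an omission, by the gene named first, moved r much more. It went from 0.212 to -0.812 for Ftl1 with Hmox2, and from 0.343 to 0.849 for Slc11a2 with Hmox1. The genes most like Fth1 in pattern, among 12249, were Rapgefl1, Ing2, Reep5, Tmem19 and Sft2d2, with r of 0.937 to 0.869 over 9 libraries. For Hmox1 they were Anxa6, Stat2, a gene number without a symbol, Washc2 and Gm36402, with r of 0.920 to 0.884. These were picked as the highest of many correlations, so they carry no test.

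Around the 10 genes, 83 others of iron and haem handling were examined in 8 lists by role, of which 61 were tested. None had an adjusted p under 0.05 in edgeR, DESeq2 or limma-voom. At an unadjusted p under 0.05 in edgeR there were 3 (4.92% of the 61, against 6.35% of all genes), namely Cp and Fbxl5, with estimates above 0, and Lrp1, below 0. Full separation of the groups was seen for 1 of 61, or 1.64%, against 2.48% of all genes. Estimates were higher for 31 and lower for 30, with a median log2 fold change of 0.06.

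Ceruloplasmin, encoded by Cp, is the ferroxidase that works with ferroportin in iron export. It had 49.2, 34.99, 66.8, 61.6 and 56.6 CPM in Tau-P301L libraries 1 to 5, against 32.8, 28.0, 10.7 and 28.3 CPM in wild-type libraries 1 to 4. The lowest Tau-P301L library, number 2, lay just above the highest wild-type library, number 1, so the groups did not overlap. The log2 fold change was 1.10 (SE 0.37, 95% interval 0.33 to 1.87, unadjusted p = 0.00736, edgeR adjusted p = 0.681), so it did not pass over all genes. It was 0.47 in females alone and 1.66 in males alone, and 0.74 without wild-type library 3. A difference between the sexes was not detected (interaction 1.18, SE 0.69, edgeR unadjusted p = 0.102, adjusted p = 0.999). Astrocytes are a known source of Cp in brain. The summed level of 6 astrocyte markers was 309.4, 319.6, 595.1, 526.3 and 669.6 CPM in Tau-P301L libraries 1 to 5, against 416.5, 310.6, 336.7 and 374.4 CPM in wild-type libraries 1 to 4, and 0 of the 6 were at 0 in all libraries. The 3 Tau-P301L libraries with the highest sum were also those with the highest Cp. Slc1a2 made up most of the sum (387.4, 366.9 and 539.8 CPM in Tau-P301L libraries 3, 4 and 5), and single markers differed from it: in Tau-P301L library 3 Gfap (2.24 CPM) and Aldoc (3.59 CPM) were the lowest of the Tau-P301L libraries. Log2 fold changes of Tau-P301L over wild-type were above 0 for 5 of the 6 markers and -1.09 (SE 0.60) for Aldoc. The part of astrocyte RNA in the level of Cp was not tested.

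Fbxl5 encodes the subunit of a ubiquitin ligase that senses iron and marks iron regulatory proteins for breakdown. It had 46.4, 21.8, 36.8, 40.6 and 35.6 CPM in Tau-P301L libraries 1 to 5, against 15.9, 17.4, 16.8 and 22.2 CPM in wild-type libraries 1 to 4. Tau-P301L library 2 was just below wild-type library 4, and the other 4 Tau-P301L libraries lay above the whole wild-type range. The log2 fold change was 0.99 (SE 0.35, 95% interval 0.26 to 1.71, unadjusted p = 0.0104, edgeR adjusted p = 0.691). Of the iron regulatory proteins themselves, Aco1 stood at -0.49 (SE 0.44) and Ireb2 at 0.40 (SE 0.27) in log2 fold change, both named after their values were seen, with edgeR adjusted p of 0.861 and 0.803. The 7 genes of the sensing list were all tested, 4 with higher and 3 with lower estimates.

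Lrp1, a large endocytic receptor that takes up haem bound to haemopexin among many other ligands, had 532.4, 729.5, 280.7, 861.6 and 440.6 CPM in Tau-P301L libraries 1 to 5, against 981.4, 672.7, 1218 and 769.8 CPM in wild-type libraries 1 to 4. Library 4 of Tau-P301L lay above 2 of the wild-type libraries, so the groups overlapped. The log2 fold change was -0.68 (SE 0.28, 95% interval -1.27 to -0.09, unadjusted p = 0.0271, edgeR adjusted p = 0.772). It was -0.32 without Tau-P301L libraries 3 and 5. Of the 9 tested genes of haem uptake, transport and breakdown, 6 had higher and 3 lower estimates.

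**Figure D4:**
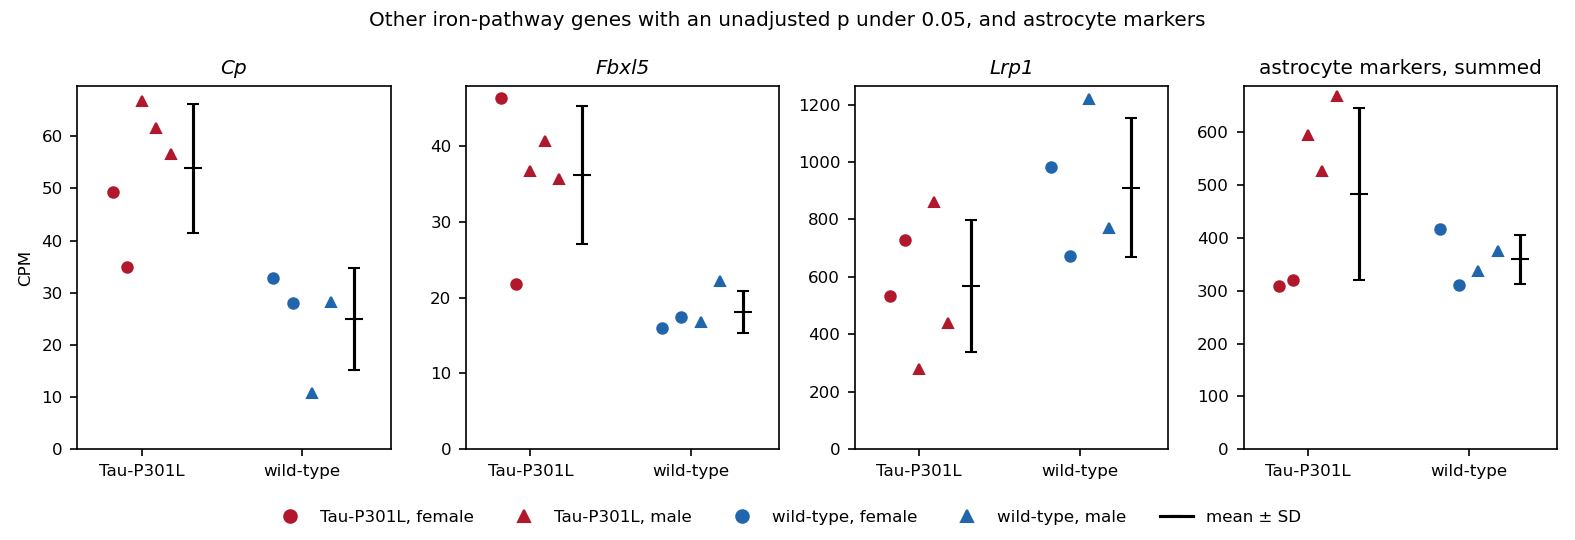
Panels plot Cp, Fbxl5, Lrp1 and the sum of 6 astrocyte markers in CPM (vertical axes from 0), with the 5 Tau-P301L libraries (red) left of the 4 wild-type libraries (blue), circles for females, triangles for males and bars for mean and SD. Cp separates the groups, with 34.99 CPM or more in Tau-P301L and 32.8 CPM or less in wild-type libraries, and the male Tau-P301L libraries are high for both Cp and the astrocyte sum, which is mostly Slc1a2.

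The remaining lists had no gene with an unadjusted p under 0.05, and the genes of smallest p are given. In haem synthesis (8 tested, 3 higher and 5 lower, median log2 fold change -0.06) these were Ppox, which makes the last precursor of haem, at -0.97 (SE 0.47, edgeR adjusted p = 0.776) and Fech, which inserts the iron, at 0.52 (SE 0.40, adjusted p = 0.831). Among genes of mitochondrial iron and iron-sulphur clusters (14 tested, 4 higher and 10 lower, median -0.16) Iscu, the scaffold for new clusters, stood at -0.84 (SE 0.56, edgeR adjusted p = 0.803). Its level was 4.64 ± 1.501 CPM in Tau-P301L libraries, against 8.42 ± 2.36 CPM in wild-type ones (SD, n = 5 and 4).

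Among the targets and regulators of Nrf2 and Bach1, which control Hmox1 and ferritin transcription (12 tested, 6 higher and 6 lower, median 0.01), Slc7a11, the cystine importer, had a log2 fold change of 1.13 (SE 0.56, edgeR adjusted p = 0.776). Keap1, which holds Nrf2 in check, had one of -1.04 (SE 0.58, edgeR adjusted p = 0.789). Slc7a11 averaged 10.4 ± 4.59 CPM in Tau-P301L libraries, against 4.71 ± 1.93 CPM in wild-type ones (SD, n = 5 and 4). Keap1 averaged 5.14 ± 3.20 CPM in Tau-P301L libraries, against 10.9 ± 3.35 CPM in wild-type ones. Both rest on few reads. Keap1 had 20, 17, 4, 22 and 3 reads in Tau-P301L libraries 1 to 5, against 41, 28, 38 and 25 in wild-type libraries 1 to 4. Over the alternatives of the closing section its log2 fold change ran from -1.53 to -0.57, and that of Slc7a11 from 0.76 to 1.54. In the uptake list (7 of 13 tested, 5 higher and 2 lower, median 0.28) Snx3, which recycles the transferrin receptor, stood at 0.52 (SE 0.44) and Mcoln1, a lysosomal channel that releases iron, at -0.34 (SE 0.39), with edgeR adjusted p of 0.850 and 0.898. In storage and chaperones (3 of 5 tested, 2 higher and 1 lower, median 0.09) Pcbp1, which loads iron into ferritin, stood at 0.23 (SE 0.40) and Glrx3, a cytosolic iron-sulphur chaperone, at -0.31 (SE 0.63), with edgeR adjusted p of 0.938 and 0.941. Of the export list only Cp was tested: Heph, Hephl1, Hamp and Bmp6 were too low.

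**Figure D5:**
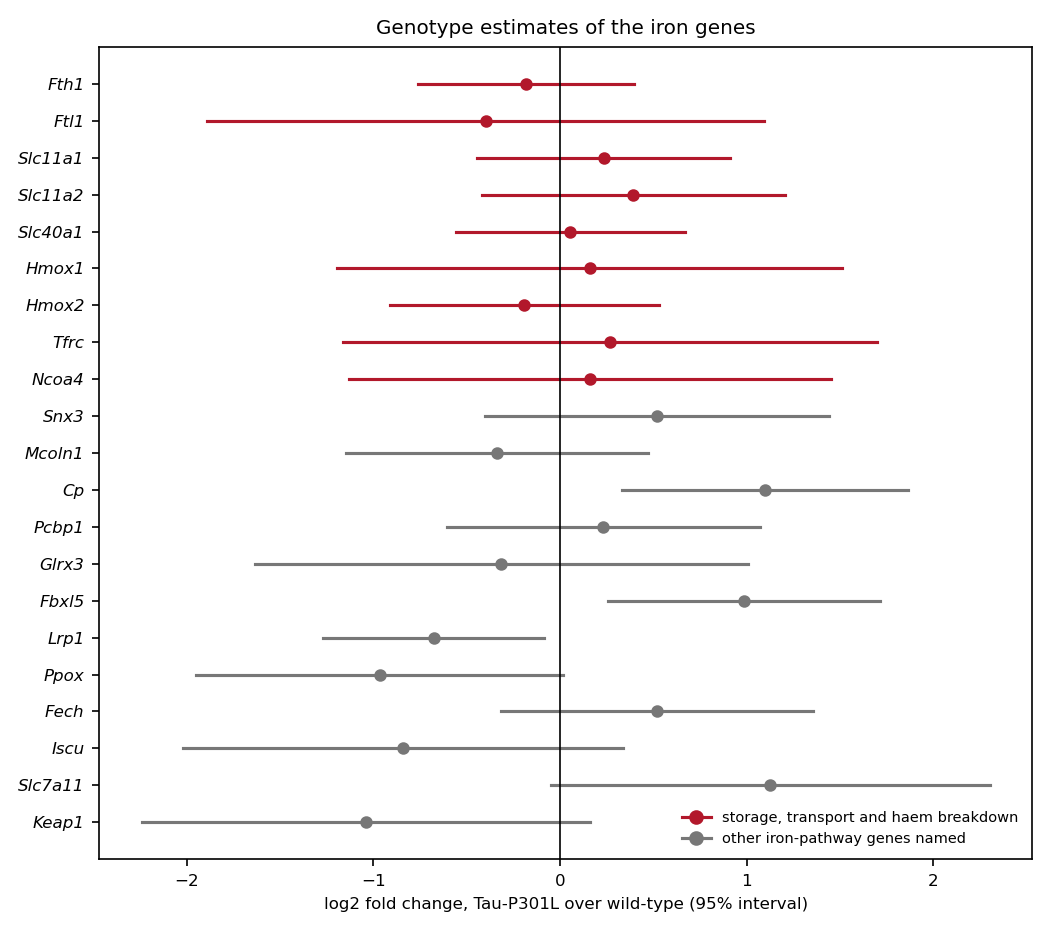
Points are log2 fold changes of Tau-P301L over wild-type (horizontal axis) and lines their 95% intervals, for the 9 tested iron genes (red) and 12 other iron-pathway genes (grey) listed on the vertical axis; 0 is marked by a line. All 9 red intervals cross 0, as do all grey ones except those of Cp, Fbxl5 and Lrp1, which are not adjusted for the number of genes tested.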

How the data were processed

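Each of the 9 files gave 1 library of sorted Cd11b+ cells. Per the submitters' processing notes, reads were aligned with GSNAP to mouse GRCm38; versions, annotation and read filters were not given. Per the file headers, the counts deposited for each gene are of reads that aligned to it uniquely. Beside them the files hold RPKM that the authors adjusted by size factors, again per the file headers; these served only to compare levels between genes. RefSeq (GRCm38.p6) named 31049 of the 36528 gene numbers and gave their coordinates.

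Counts were tested by quasi-likelihood in edgeR (version 4.0.16, under R 4.3.3), with TMM scaling, the default low-count filter, genotype and sex as terms, and Benjamini-Hochberg adjustment over the 12250 genes tested at 0.05. Levels are TMM-scaled CPM. Intervals use the moderated degrees of freedom of the fit. Read ratios had 0.5 reads added to each count. Members and lists were chosen with earlier results of these data known. All 10 members were named; of each list, genes with an unadjusted p under 0.05, or else the 2 of smallest p, and the 5 genes most correlated with Fth1 and with Hmox1; 1 gene under this rule is not reported here. DESeq2 1.42.0, limma-voom (limma 3.58.1), other scalings, filters and terms, each sex alone and leaving out libraries were alternatives. Depth was 1494727 to 3793606 reads per library, and 3 reads were taken as the limit of detection, which covers counting error only.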

Additional observations from a re-analysis of the deposited data

Results flagged for a closer look

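Over 50 groups of library values, 3 held a value whose gap to its nearest neighbour took up an unusually large share of the group's range, where chance gives about 1 in 20. Tfrc stood at 1.66 CPM in wild-type library 4, against 8.18 to 9.50 CPM in the other 3 wild-type libraries. Steap3 stood at 0.554 CPM (2 reads) in wild-type library 4 and at 0 in the other wild-type libraries. With those at 0, a single read would also have been flagged, so this flag says little. Glrx3 stood at 1.71 CPM in Tau-P301L library 4, against 4.29 to 5.08 CPM in the other 4 Tau-P301L libraries.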

How the results depend on the processing

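No paired analysis was possible because the labels give no replicate numbers that link libraries of both genotypes. None of the 9 tested iron genes was called for genotype, sex or their interaction, and none of the other iron-pathway genes for genotype, under any alternative in which it was tested. Over all genes, the count called for genotype was 1, against 24 with DESeq2, 26 without a low-count filter, 0 in females alone, 0 in males alone and 0 without Tau-P301L libraries 3 and 5, and it was 0 to 1 when each library was left out in turn (0 without Tau-P301L library 1, 3 or 5 or any wild-type library). Of 173 alternative genotype values for the 9 genes, 152 kept their sign and 21 turned it, and of 234 for the 12 other genes named by rule 229 kept it; the smallest adjusted p values were 0.803 and 0.220, and the cause of the turns was not tested.

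Log2 fold changes that turned sign with limma-voom were those of Slc40a1 (-0.067), Tfrc (-0.0057) and Pcbp1 (-0.11), and with the mitochondrial share in the model those of Slc40a1 (-0.013) and Tfrc (-0.000177). In females alone they were those of Slc11a2 (-0.18), Slc40a1 (-0.26), Hmox1 (-0.50) and Tfrc (-0.083), and in males alone those of Fth1 (0.16), Ncoa4 (-0.14) and Mcoln1 (0.0037). Without Tau-P301L libraries 3 and 5 they were those of Slc40a1 (-0.19), Tfrc (-0.32), Pcbp1 (-0.26) and the ratio of Slc40a1 to Tfrc (-0.27). Leaving out single libraries gave ranges across 0 for Slc11a1 (-0.020 to 0.39), Slc40a1 (-0.14 to 0.23), Hmox1 (-0.12 to 0.56), Tfrc (-0.56 to 0.70), Ncoa4 (-0.034 to 0.35), Pcbp1 (-0.050 to 0.45), the ratio of Fth1 to Ftl1 (-0.11 to 0.36) and that of Slc40a1 to Tfrc (-0.39 to 0.64). Ftl1, Ncoa4, Hmox1, Tfrc, Glrx3, Iscu, Keap1 and Slc7a11 rest on few reads, and Ftl1 had too few to be tested in 4 of 20 alternatives. At this depth the 95% intervals ran from 0.590 to 1.32 times the wild-type level for Fth1 and from 0.679 to 1.59 times for Slc40a1, and past 2-fold for Ftl1, Slc11a2, Hmox1, Tfrc and Ncoa4.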
